A study of Mus musculus with 6 samples.

Results

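Krt7, Krt8, Krt18, Krt19 and Vim are the simple epithelial keratin genes and the vimentin gene, 5 of the 23366 genes listed. They were taken by symbol from the authors' table of normalized counts, and the set was chosen by readout: the normalized counts of control against YAP siRNA in these same libraries were known when the genes were selected. Their difference between the groups is therefore described without a test. All libraries came from SC4 cells, a mouse schwannoma Schwann cell line without Nf2, which encodes the tumour suppressor merlin. It is 1 line, the labels name no clone, and every library is Nf2-null, controls included. The cells were transfected with a control siRNA (control siRNA group) or with a Smartpool siRNA mix targeting YAP (YAP siRNA group), a transcriptional co-activator restrained by the Hippo pathway, for 48 hours. There were 3 libraries per group with replicate numbers 1 to 3. No label ties them to separate cultures, so the p-values below reflect the spread of libraries, which may be technical.

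Intermediate filaments are the rope-like part of the cytoskeleton. Keratin filaments need a type I and a type II keratin in equal amounts, which pair as obligate heterodimers; in simple, single-layered epithelia Krt8 (type II) usually pairs with Krt18 (type I), with Krt7 (type II) and Krt19 (type I) added in ducts and glands. Vimentin is a type III filament protein that assembles without a partner of another type and is typical of mesenchymal cells and of immature and cultured Schwann cells. Loss of keratins with gain of vimentin is a common readout of epithelial to mesenchymal transition.

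Libraries numbered 1 stood apart from the others in both groups. Depth was 18025132 to 60078880 recovered gene reads, and a single read stood for 0.461 to 1.52 normalized counts depending on the library. The first principal component, with 63.5% of the variance, separated replicate 1 of both groups from replicates 2 and 3, so each replicate number is given apart below. Yap1, the siRNA target, ranged from 4749.6 to 5732 normalized counts among controls and from 475 to 936 among YAP siRNA libraries. Of 16 Schwann cell markers, Gfra3 was at 0 in all libraries. Sox10, which defines the lineage, reached 4.55 normalized counts at most in the controls and 15.6 after YAP siRNA, and S100b reached 18.7. Pmp22, Mbp, Egr2, Ngfr and Ncam1 were well above this, at a mean of 1290 normalized counts or more over all 6 libraries.

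Krt8 and Krt18 are next to each other, and their start sites lie 23874 bases apart on chromosome 15 and point away from each other in the RefSeq annotation of GRCm38.p6. Krt18 is the type I gene at the edge of the type II keratin cluster. A RefSeq start region, 250 bases before to 50 bases after the start, was found for Krt7, Krt8, Krt18 and Vim, 4 of the 5 genes. The regions of Krt8 and Krt18 are shown because both were lower after YAP siRNA, and that of Vim because its level moved less. Krt8 is at chr15:102004293-102004592 (minus strand), Krt18 at chr15:102027966-102028265 (plus strand) and Vim at chr2:13574061-13574360 (plus strand), all in GRCm38.p6, and the letters run 5′ to 3′ along the gene. Capitals mark matches to TATAAA, on either strand.
Krt8: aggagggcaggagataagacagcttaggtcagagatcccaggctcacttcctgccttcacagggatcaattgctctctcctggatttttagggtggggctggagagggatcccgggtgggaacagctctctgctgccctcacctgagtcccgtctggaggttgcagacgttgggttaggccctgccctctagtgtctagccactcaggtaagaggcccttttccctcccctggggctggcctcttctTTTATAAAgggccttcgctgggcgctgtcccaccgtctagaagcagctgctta
Krt18: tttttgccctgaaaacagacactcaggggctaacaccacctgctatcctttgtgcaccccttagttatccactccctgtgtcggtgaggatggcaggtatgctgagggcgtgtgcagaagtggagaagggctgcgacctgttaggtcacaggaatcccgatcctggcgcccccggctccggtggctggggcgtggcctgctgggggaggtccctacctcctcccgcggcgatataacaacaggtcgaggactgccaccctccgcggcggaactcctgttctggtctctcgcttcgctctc
Vim: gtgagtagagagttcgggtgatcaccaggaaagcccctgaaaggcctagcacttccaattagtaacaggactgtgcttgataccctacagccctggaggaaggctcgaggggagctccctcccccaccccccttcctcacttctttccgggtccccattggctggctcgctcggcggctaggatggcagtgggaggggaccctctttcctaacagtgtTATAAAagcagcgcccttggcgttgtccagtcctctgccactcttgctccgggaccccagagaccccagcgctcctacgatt

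These motifs were searched on both strands: GGAATG (the core bound by TEAD factors, the DNA-binding partners of YAP), TGANTCA (AP-1), GGGCGG (the GC box of the SP1 and KLF families) and TATAAA (the TATA box). The TEAD core had 0 matches in the windows of Krt7, Krt8, Krt18 and Vim, and 14.7% of 32851 RefSeq windows of this length hold it. AP-1 also had 0 matches in all 4, against 7.81% of all windows. TATAAA had 1 match in Vim, 32 bases before the start, and 2 overlapping matches on opposite strands in Krt8, at the annotated start, and 13.6% of all windows hold it. GGGCGG had 4 matches in the window of Krt7, from 141 to 24 bases before the start, and 0 in those of Krt8, Krt18 and Vim, against 35.7% of all windows. GC content was 58% for Krt8, 61.3% for Krt18, 59.3% for Vim and 66.3% for Krt7, where the median of all windows was 52.7%. The letters say nothing of binding in these cells, and sites outside the windows were not searched.

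The 3 keratins that were expressed were all lower after YAP siRNA, by about 4- to 5-fold in their means, whereas Vim was lower by 1.22-fold and Krt7 was at the detection limit in both groups. For Krt8, Krt18 and Krt19 the 3 YAP siRNA libraries all lay below the 3 controls. Of 12820 genes with a mean of at least 10 normalized counts, 9.49% were separated in this way and 9.47% in the opposite way. Krt8, Krt18, Krt19 and Vim were lower in each of the 3 same-numbered pairs, as were 27.1% of all genes tested. The genes had been chosen with this contrast known, so nothing follows from these counts about the group. In bulk RNA, fewer cells with a transcript and less of it per cell cannot be told apart.

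**Figure D1:**
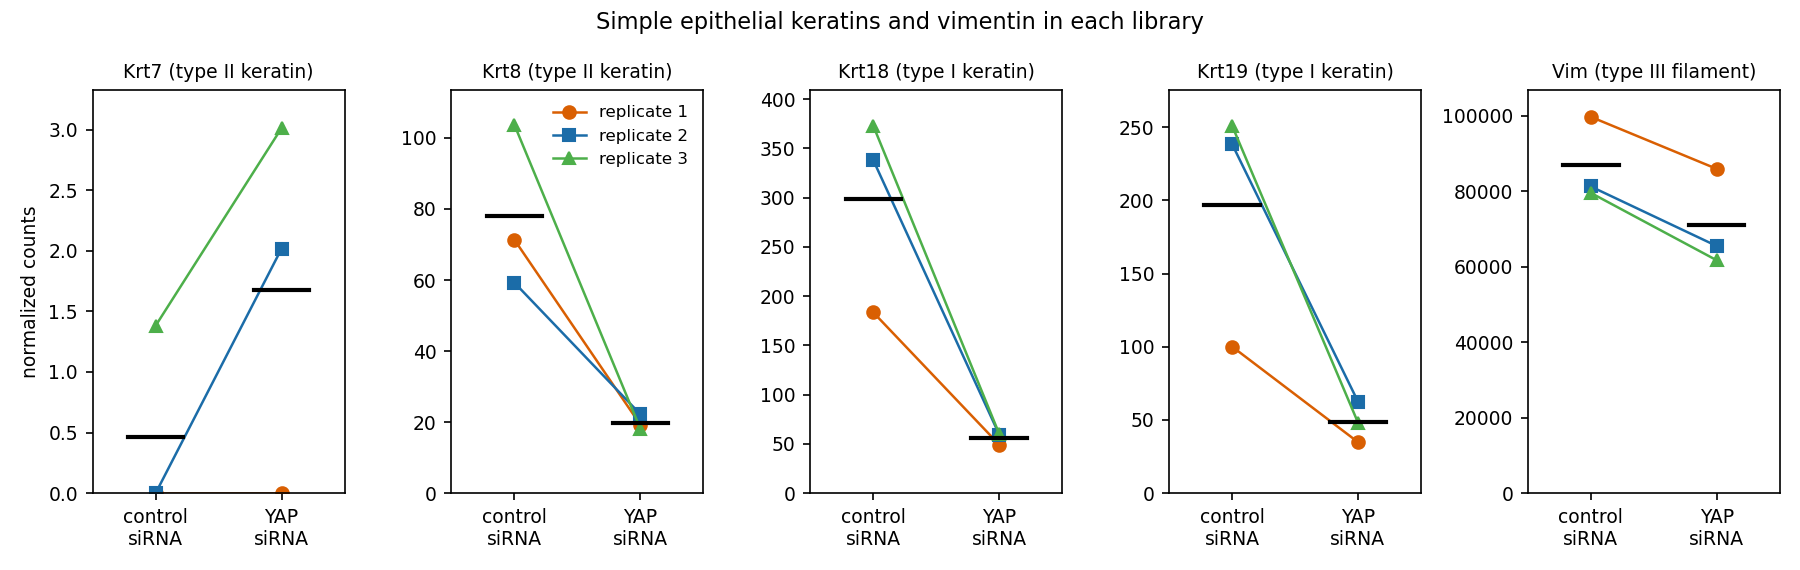
Normalized counts of Krt7, Krt8, Krt18, Krt19 and Vim in each library (vertical axes, each starting at 0), with control siRNA on the left and YAP siRNA on the right of each panel. Coloured lines join libraries of the same replicate number and black bars are group means; the keratin panels other than Krt7 separate fully, the Vim groups overlap, and Krt7 stays at 3.01 or below.

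Among the type I keratins of the set, Krt18 had the highest mean in both groups. It had 184, 338 and 373 normalized counts in control replicates 1, 2 and 3, and 49.3, 59.5 and 60.3 in YAP siRNA replicates 1, 2 and 3. Replicate 1 was the lowest library of either group, but it lay far above all YAP siRNA libraries in the controls. The mean went from 298 ± 101 to 56.4 ± 6.15 (SD, n = 3), which is 18.9% of the control mean. By pair, YAP siRNA stood at 26.8%, 17.6% and 16.2% of the control for replicates 1, 2 and 3, a mean log2 difference of −2.32 with an SD of 0.39 over the pairs. The log2 scale is log2(value + 1) throughout, and the pooled reads behind these values were 1365 in the controls and 140 after YAP siRNA.

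Krt19, the smallest keratin and one without the usual tail domain, was the other type I gene of the set. Its normalized counts were 100.2, 239 and 251 in control replicates 1, 2 and 3, and 34.9, 62.6 and 48.2 after YAP siRNA. The control of replicate 1 again had less than the other controls, and the groups did not overlap. The mean went from 197 ± 83.8 to 48.6 ± 13.9 (SD, n = 3), or 24.7% of the control. The pairs stood at 34.8%, 26.2% and 19.2%, with a mean log2 difference of −1.92 and an SD of 0.43.

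The type II keratin Krt8, the usual partner of Krt18, had fewer reads. It was at 71.3, 59.2 and 104 normalized counts in control replicates 1, 2 and 3, and at 19.2, 22.2 and 18.1 after YAP siRNA. The YAP siRNA libraries rest on 16, 22 and 12 reads, and counting error is large at that depth. The mean went from 78.1 ± 22.97 to 19.8 ± 2.12 (SD, n = 3), or 25.4% of the control, and the pairs stood at 27.0%, 37.5% and 17.4%. The mean log2 difference was −1.89 with an SD of 0.54, and −1.53 with a pseudocount of 10, which shrinks the difference of low genes. Unlike Krt18 and Krt19, Krt8 was not lowest in replicate 1 of the controls.

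Krt7, the other type II keratin of the group, was barely detected. Its reads were 0, 0 and 3 in the controls and 0, 2 and 2 after YAP siRNA, at or under the floor of 3 reads per library. No difference was detectable at this depth and no fold is given. Krt7 did not reach the mean of 10 normalized counts needed for the comparison.

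Vim was present at far higher levels and moved little. It had 99723, 81269 and 79574 normalized counts in control replicates 1, 2 and 3, and 85930, 65491 and 61709 after YAP siRNA. Replicate 1 was the highest library of both groups, the opposite of Krt18 and Krt19, and YAP siRNA replicate 1 lay above control replicates 2 and 3, so the groups overlapped. The mean went from 86856 ± 11176 to 71043 ± 13030 (SD, n = 3), or 81.8% of the control. Within pairs the value stood at 86.2%, 80.6% and 77.5% of the control, and the mean log2 difference of −0.30 had an SD of 0.077 over the pairs. Depth does not limit this gene, with at least 40948 reads in every library.

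**Figure D2:**
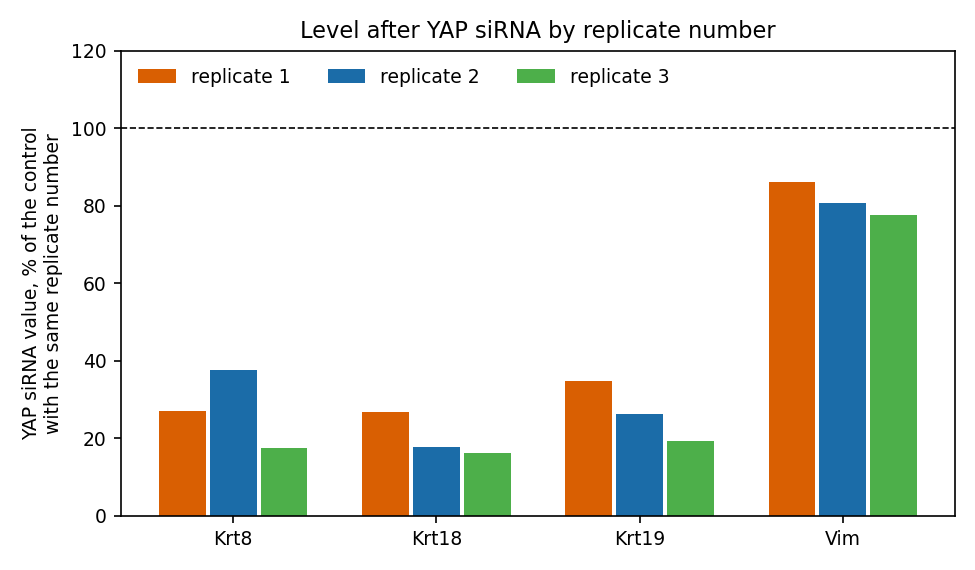
Each bar is the YAP siRNA value of a gene as a percentage of the control with the same replicate number (vertical axis, from 0), for Krt8, Krt18, Krt19 and Vim, and the dashed line marks 100%. All bars lie below the line, between 16.2% and 37.5% for the keratins and between 77.5% and 86.2% for Vim; for Krt18, Krt19 and Vim the bar of replicate 1 is the highest.

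Leaving out replicate 1 of both groups gave log2 differences of −2.55 for Krt18, −2.14 for Krt19, −1.92 for Krt8 and −0.34 for Vim. The 3 keratins and Vim lay below 0 with and without the libraries that stood apart. That sign was fixed beforehand, because each of them was lower in each same-numbered pair, so it adds no support. Vim, with control replicate 1 left out alone, had a log2 difference of −0.19, and −0.44 with YAP siRNA replicate 1 left out alone.

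Sequence shared with pseudogenes differs between these genes. In GENCODE M21 transcripts, 36.0% of the 1928 31-mers of Krt8 also occur in another gene, and most of these are in the processed pseudogene Krt8-ps (621 of them). For Krt18 the share was 11.4%, all of it in 3 processed pseudogenes, and it was 0.517% for Krt19 and 0.416% for Vim. For Krt7 it was 3.125%, spread over 3433 other genes, of which 73 are pseudogenes. No row of the table carries the symbol of Krt8-ps or of the 3 Krt18 pseudogenes. How reads shared with them were counted is not given in the sources used here, so the levels of Krt8 and, less so, Krt18 are uncertain. The part of shared reads in the differences of Krt8 and Krt18 was not tested.

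Levels were compared between genes per kilobase of the principal GENCODE M21 transcript. In the controls the order was Vim at 39606 ± 5096, Krt18 at 208 ± 70.2, Krt19 at 125 ± 53.1, Krt8 at 39.9 ± 11.7 and Krt7 at 0.113 ± 0.195 normalized counts per kilobase (SD, n = 3). Vim ranked 8 among 21732 genes with a transcript length, and Krt18 ranked 7136. The ranges of Krt18 and Krt19 overlapped across libraries, although within each control library Krt18 was the higher of the pair, by 2.01, 1.56 and 1.63 times in replicates 1, 2 and 3. After YAP siRNA the order was the same, with Vim at 32396 ± 5942, Krt18 at 39.2 ± 4.28, Krt19 at 30.8 ± 8.79 and Krt8 at 10.1 ± 1.09, and the ratio of Krt18 to Krt19 was 1.55, 1.04 and 1.37.

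**Figure D3:**
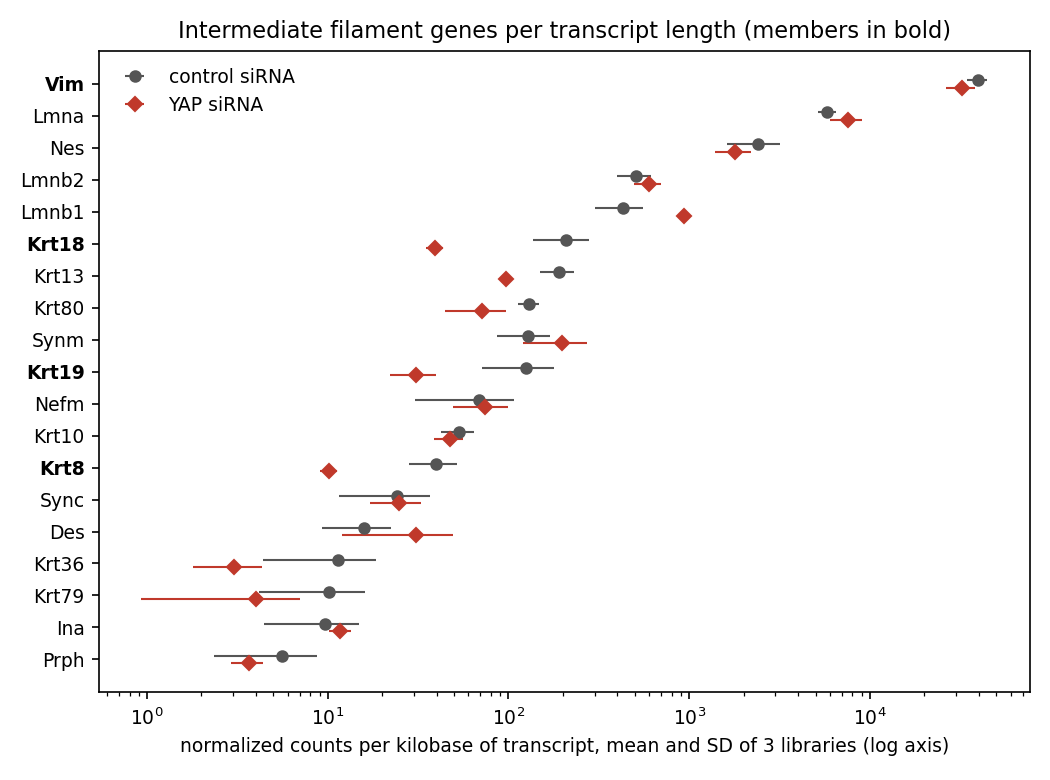
Intermediate filament genes in order of their control level, as normalized counts per kilobase of transcript (horizontal log axis; points are means and bars the SD of 3 libraries), for control siRNA and YAP siRNA. Vim lies far above every other filament gene in both groups, and Krt18, Krt19 and Krt8 shift to the left after YAP siRNA.

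Ratios within a library do not depend on the scaling between libraries. The type I members (Krt18 with Krt19) exceeded the type II members (Krt7 with Krt8) per kilobase by 5.25, 12.8 and 7.86 times in control replicates 1, 2 and 3, and by 5.74, 6.86 and 7.28 times after YAP siRNA. These ratios overlapped between the groups. Their type II part is almost wholly Krt8, whose level is uncertain because of the sequence shared with pseudogenes. Vim exceeded the 4 keratins together by 76.8 to 200 times in the controls and by 321 to 592 times after YAP siRNA, with no overlap. The control with the highest ratio was replicate 1. Across all keratins with a transcript length, 28 of type I and 23 of type II, type I RNA exceeded type II by 2.24 to 4.12 times in the controls and by 1.82 to 3.33 times after YAP siRNA. The 4 simple keratins made up 39.0% to 51.8% of all keratin RNA per kilobase in the controls and 20.6% to 29.3% after YAP siRNA. This share and the ratio of Vim to the 4 keratins largely restate the lower level of genes chosen with this contrast known. They add no support. As a share of the RNA of 64 cytoplasmic filament genes, Vim held 90.0% to 95.3% in the controls and 91.1% to 95.4% after YAP siRNA, which overlap.

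The other genes of the filament system were listed by family and function, and could be tested. limma, without pairing, called 0 of 12820 genes (0%) at a Benjamini-Hochberg adjusted p under 0.05; 1558 passed at an unadjusted p under 0.05, edgeR called 0, and DESeq2 called 330 higher and 399 lower. Blocking on the replicate number gave 1067 higher (8.32%) and 1149 lower (8.96%) in limma. The words rose and fell are kept for genes past that blocked threshold, and with all 6 libraries none of those named below passed in limma without the block. With replicate 1 left out the blocked calls were 2804 higher and 2792 lower, without replicate 2 they were 123 and 177, without replicate 3 538 and 590, and in blocked limma without a mean-variance trend 12 and 18. In that last setting 0 genes passed in any of the filament, linker or marker lists below, nor did the neighbouring genes named.

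Among 48 other keratin genes, 0 rose and 2 fell of 5 tested, and 21 were at 0 in every library. Krt13, a type I keratin of stratified mucosa that lies near Krt19 on chromosome 11, fell to 159 ± 1.56 normalized counts from 314 ± 65.5 in the controls (SD, n = 3). Its log2 difference was −0.95 with an SE of 0.189 (blocked limma, adjusted p = 0.0130, and 0.213 unblocked). Its values were 246, 320 and 376 in the controls and 159, 158 and 161 after YAP siRNA. Krt80, a type II keratin, fell to 218 ± 81.2 from 399 ± 53.4 (SD, n = 3), a log2 difference of −0.92 with an SE of 0.201 (blocked limma, adjusted p = 0.0181, and 0.292 unblocked). The groups of both genes did not overlap. Krt10, Krt36 and Krt79 did not pass, with log2 differences of −0.16, −1.59 and −1.30. The median log2 difference of the 5 was −0.95, against 0.0094 over all genes tested. The basal keratins of stratified epithelium, Krt5 and Krt14, reached 6.45 and 6.06 normalized counts at most. Krt14 had 0, 2 and 0 reads in the controls and 4, 6 and 3 after YAP siRNA. It was higher in all 3 pairs without overlap, but lay below the filter and was not tested. Without replicate 2 of both groups neither Krt13 nor Krt80 passed (blocked limma, adjusted p = 0.117 and 0.186), and Krt13 did not without replicate 3 (0.0552).

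Among 17 other intermediate filament genes, 3 rose and 1 fell of 11 tested, with a median log2 difference of 0.28. Lmnb1, which encodes lamin B1 of the nuclear lamina, rose to 2654 ± 194 normalized counts from 1216 ± 362 (SD, n = 3), a log2 difference of 1.16 with an SE of 0.132 (blocked limma, adjusted p = 0.00201, and 0.165 unblocked). Lmna, for lamins A and C, rose by 0.36 and Synm, for the vimentin and desmin partner synemin, by 0.59 on the log2 scale (blocked limma, adjusted p = 0.0290 and 0.0103, and 0.523 and 0.632 unblocked). Nes, which encodes nestin, a large filament protein of progenitor and Schwann cells that assembles with vimentin, fell to 10978 ± 2437 from 14705 ± 4817 (SD, n = 3), a log2 difference of −0.39 (blocked limma, adjusted p = 0.0282, and 0.697 unblocked). Lmnb1 also passed without replicate 1, 2 or 3, though not in blocked limma without a trend (adjusted p = 0.0790), whereas Lmna and Nes did not pass without replicate 2 (blocked limma, adjusted p = 0.313 and 0.297) or without replicate 3 (0.125 and 0.108), and Synm did not without replicate 2 (0.119). Desmin (Des), the muscle type III filament, had a log2 difference of 0.75 that missed the threshold (blocked limma, adjusted p = 0.135). Gfap, the glial type III filament gene that mature non-myelinating Schwann cells express, was below the filter, at 9.68 normalized counts at most.

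Filament linkers and desmosome genes that passed were lower. Of 26 genes, 0 rose and 4 fell of 19 tested, with a median log2 difference of −0.20. Jup, which encodes plakoglobin of desmosomes and adherens junctions, fell to 1940 ± 876 normalized counts from 3085 ± 1721 (SD, n = 3), at 1135, 3725 and 4394 in the controls and 929, 2412 and 2478 after YAP siRNA, so that the groups overlap but each pair is lower (log2 difference −0.58). The integrin gene Itga6, whose product with that of Itgb4 anchors keratin at hemidesmosomes, fell by 0.61, while Itgb4 itself had a log2 difference of 0.084 (blocked limma, adjusted p = 0.595). Col17a1, another hemidesmosome gene, fell to 5.83 ± 2.71 normalized counts from 39.9 ± 16.4 (SD, n = 3), a log2 difference of −2.58. Its YAP siRNA libraries rest on 7, 6 and 2 reads, where counting error is large. The linker gene Evpl fell with a log2 difference of −3.08, but in the controls it was at 3.03, 70.9 and 76.0, so control replicate 1 lay within the range of the YAP siRNA libraries. Evpl had only 1, 2 and 3 reads after YAP siRNA. The blocked limma adjusted p was 0.0149 for Jup, 0.0150 for Itga6, 0.0182 for Col17a1 and 0.0327 for Evpl, and 0.801, 0.293, 0.189 and 0.390 unblocked.

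Plec and Dsp had smaller differences that missed the threshold. Plec, for plectin, which ties vimentin and keratin to other structures, had a log2 difference of 0.081 (95% interval in blocked limma, −0.11 to 0.27) and desmoplakin (Dsp) one of −0.15 (−0.38 to 0.085). The desmosomal cadherin genes Dsg1a and Dsg3 were at 0 in every library, and Dsg2, Dsc1, Dsc2 and Dsc3 reached 2.40 normalized counts at most. Without replicate 2, Jup, Itga6, Col17a1 and Evpl did not pass (blocked limma, adjusted p = 0.140, 0.135, 0.179 and 0.316), and without replicate 3 Jup and Evpl did not (0.0552 and 0.113).

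**Figure D4:**
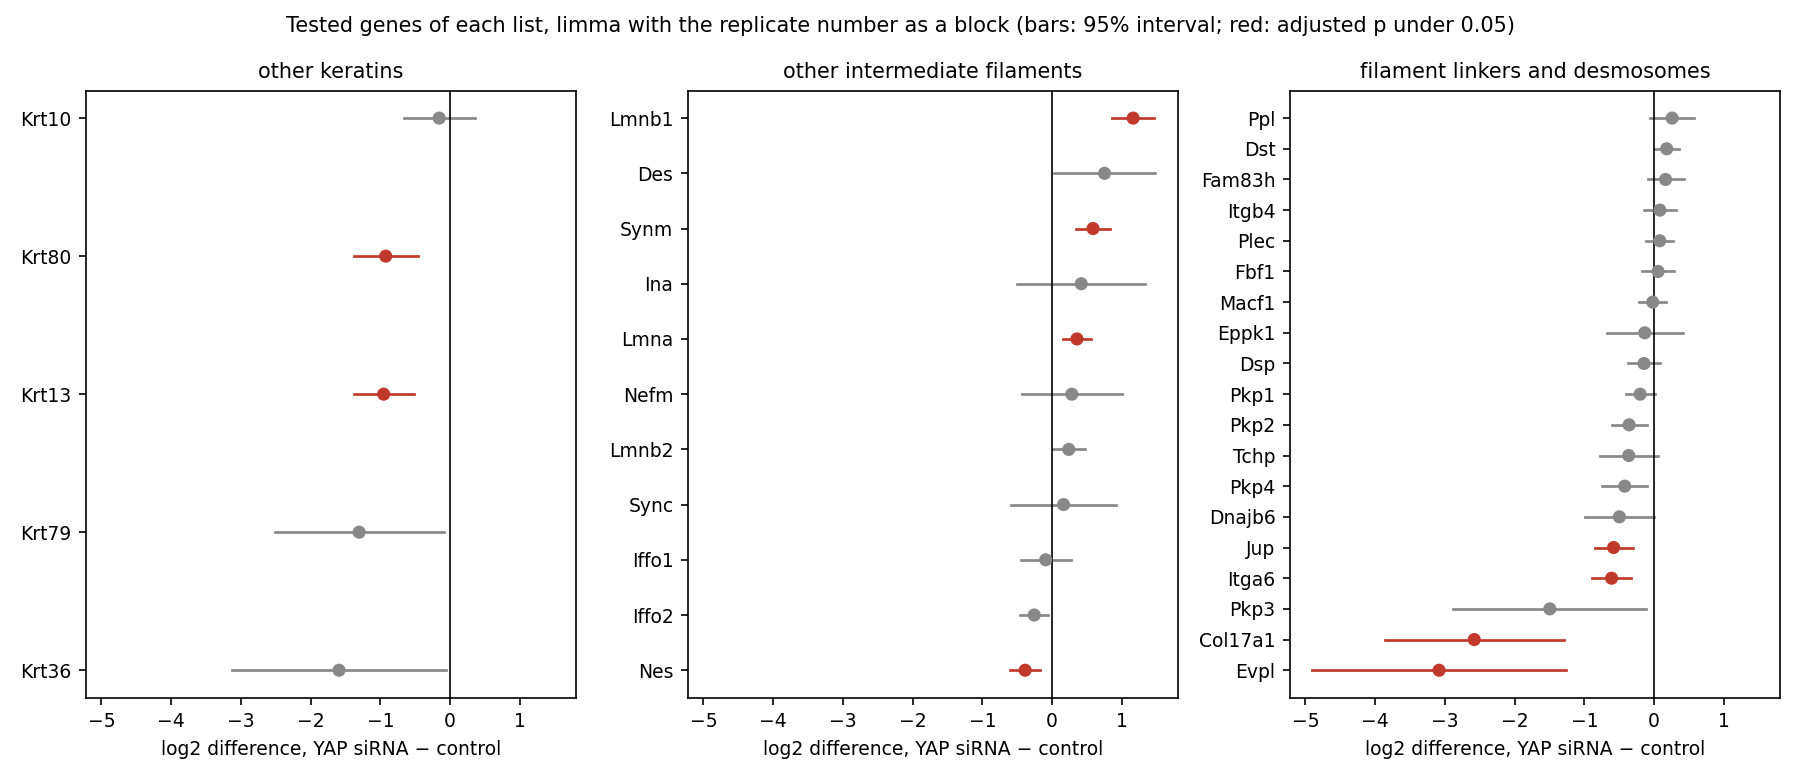
Log2 difference of YAP siRNA minus control (horizontal axis) for each tested gene of the other keratins, the other intermediate filaments and the linkers and desmosomes, with 95% intervals from limma with the replicate block. Red marks an adjusted p under 0.05; 2, 4 and 4 genes are red in the 3 panels, and in the first and last all of these are lower.

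Markers of other cell types were measured beside the keratins. Of 25 epithelial markers, 5 were at 0 in all libraries, including Cldn7, and 6 could be tested. The E-cadherin gene Cdh1 reached 3.03 normalized counts among controls and 6.01 among YAP siRNA libraries, and Epcam had 9.10, 28.1 and 20.7 in the controls and 4.81, 8.07 and 10.5 after YAP siRNA. The summed level of the list was 238 to 299.96 in the controls and 185 to 224 after YAP siRNA. Of the 6 tested, 0 rose and 1 fell, namely Spint1, a protease inhibitor gene, from 23.6 ± 6.65 to 5.46 ± 1.84 (SD, n = 3; blocked limma, adjusted p = 0.0408, then 0.309 without replicate 2 and 0.162 without replicate 3; 0.224 unblocked). The others did not pass: Epcam, Grhl1 and Grhl2 were lower and Cdh3 and Ocln higher in all 3 pairs, with log2 differences of −1.13, −0.46, −0.89, 1.73 and 0.54. The median log2 difference of the 6 was −0.67, and Spint1 rests on 4, 4 and 5 reads after YAP siRNA. The summed level of the list was lower beside the keratins with no overlap, at 238 in the lowest control and 224 in the highest YAP siRNA library. Grhl1, Grhl2 and Ocln had the highest means of the list over all 6 libraries, at 85.2, 42.8 and 39.8, and none of them passed. The part of the list in the keratin difference was not tested.

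Among the mesothelial markers, a cell type that also expresses Krt8, Krt18 and Krt19, Msln was high and fell by 0.66 on the log2 scale, from a control mean of 2772 ± 766 normalized counts to 1705 ± 123 (SD, n = 3; blocked limma, adjusted p = 0.0312, and 0.319 unblocked). Wt1 rose from 7.87 ± 10.4 to 44.7 ± 16.1 (SD, n = 3; blocked limma, adjusted p = 0.0412, and 0.319 unblocked), the opposite direction, and Upk3b was at 0 in every library. The list's summed level was 1976 to 3481 in the controls and 1649 to 1876 after YAP siRNA, a sum made almost wholly of Msln, which had 1954 of 1976 in control replicate 1. Msln was thus lower beside the keratins with no overlap, its part was not tested, and the median log2 difference of the 2 tested genes was 1.28, the opposite sign. Without replicate 2, neither Msln nor Wt1 passed (blocked limma, adjusted p = 0.251 and 0.205), and Wt1 did not without replicate 3 (0.0730). Wt1 rests on 13, 5 and 0 reads in control replicates 1, 2 and 3. Fibroblast markers, which accompany vimentin, summed to 280123 to 584652 in the controls and 230027 to 447334 after YAP siRNA, and overlapped between the groups. Of 7 tested, the matrix gene Postn rose (blocked limma, adjusted p = 0.0249), the collagen genes Col1a1 and Col3a1 and the proteoglycan gene Dcn fell (0.0260, 0.0366 and 0.0361), and Fap was at 0. All 4 calls were lost when replicate 2 was left out (0.162, 0.191, 0.302 and 0.243), and those of Col1a1, Col3a1 and Dcn also when replicate 3 was (0.195, 0.231 and 0.113). Col1a1 did not pass in DESeq2 with the block either (adjusted p = 0.419). Of 3 endothelial markers tested, 0 rose and 0 fell, Kdr and Pecam1 being the highest. The macrophage list summed to 284 to 341 normalized counts in controls and 214 to 262 in YAP siRNA libraries, again lower with no overlap, and its part was not tested. Of its 4 tested genes 1 fell, Csf1r (blocked limma, adjusted p = 0.0253), a call lost on leaving out replicate 2 (0.229) or replicate 3 (0.0888), and Emr1, a defining marker, reached 0.461 normalized counts. The median log2 difference of the 4 was 0.089, the opposite sign to the sum. Ptprc, at 1.03, was higher in all 3 pairs, Aif1 was at 0.21 and Cd68 at −0.031, and none of these passed. Of 12 Schwann cell markers tested, 2 rose, Pmp22 and Erbb3, and 1 fell, Ngfr (blocked limma, adjusted p = 0.00121, 0.0261 and 0.00721). Pmp22 passed with any replicate number left out, whereas Erbb3 was lost on leaving out replicate 2 (0.174) or replicate 3 (0.127) and Ngfr on leaving out replicate 2 (0.0723).

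The genes whose profiles over the 6 libraries were nearest to each member were found by the root mean square difference of centred log2 values. Candidates were the other genes with a mean of at least 50, with numbered loci and symbols beginning with Mir left out. They numbered 10677 for Krt8, which is itself below that mean, and 10676 for Krt18, Krt19 and Vim. For Krt18 the nearest was Krt19 itself, at 0.283, then the semaphorin gene Sema7a at 0.286 and the cytokine gene Lif at 0.287. For Krt19 they were the histone gene Hist2h2bb at 0.182, Lif at 0.220 and the vesicle transport gene Rab3a at 0.243. For Krt8 they were the EGF receptor ligand gene Btc at 0.305, the peroxisome gene Pex11a at 0.318 and the polarity gene Pard6b at 0.330, with Krt18 at 0.412. For Vim they were Pmpca at 0.0409, Trappc6b at 0.0419 and Dmtf1 at 0.0440; Vim was at 0.862 from Krt8, 1.04 from Krt19 and 1.12 from Krt18. These distances describe 6 libraries and include the group difference, and genes at a low level have more counting noise in them.

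Neighbouring genes were taken by RefSeq order, 5 on each side that the table lists, a choice made after the members' values were seen. Beside Krt8 and Krt18, 0 rose and 3 fell of 6 tested: Tenc1, Spryd3 and Igfbp6, with log2 differences of −0.45, −0.36 and −0.65 (blocked limma, adjusted p = 0.0114, 0.0291 and 0.00922). Eif4b, next to Krt18, had a log2 difference of 0.14 and did not pass. None of the 3 passed without replicate 2 (0.115, 0.251 and 0.102), and Spryd3 did not without replicate 3 (0.164). Beside Krt19, 1 fell of 2 tested, Krt13, and Krt36 did not pass; the other neighbours there, all keratin genes, were below the filter. Beside Vim, Rsu1 rose by 0.55 and Cubn fell by 0.91 on the log2 scale (blocked limma, adjusted p = 0.0253 and 0.0160), and the other 6 tested did not pass. Both calls were lost without replicate 2 (0.243 and 0.176), and that of Rsu1 without replicate 3 (0.0654).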

How the data were processed

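Poly(A) RNA was sequenced from SC4 cells, 3 libraries per group. The submitters' processing notes name the build mm9 and the tools TopHat2 (2.0.9), HTSeq (0.6.1) and DESeq (1.14.0). Not given in the sources used here are the annotation, the strand setting and any filter. The deposited values are a signal: each library's gene counts were scaled by the authors with a size factor of that library. All values above 0 were whole multiples of 1 read within 0.01 reads (100% in each library), so reads were recovered.

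The test was limma 3.58.1 (R 4.3.3) on log2(value + 1) (mean-variance trend, two-sided, Benjamini-Hochberg over all 12820 genes with a mean of at least 10), without a covariate as the main design and with the replicate number as a block beside it. Deviations from the group means correlated at 0.788, 0.705 and 0.532 for replicates 1, 2 and 3, each above the pairing criterion of 0.1, and equal numbers were treated as pairs; no label states that they are. The values set replicate 1 apart but do not separate 2 from 3: control 2 with YAP siRNA 3 gave 0.552 and control 3 with YAP siRNA 2 gave 0.516. edgeR 4.0.16 and DESeq2 1.42.0 were run on recovered reads. Libraries of a group differed by more than sampling noise (chi-square per degree of freedom of 8.31 or more). The method was also run on simulated counts with known changes, in which same-numbered libraries shared their mean levels apart from those changes. These counts assumed the pairing and so cannot test it.

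The members and lists were chosen with earlier results of these data known. In each list, up to 5 genes that passed with the block were named by smallest p, otherwise the 2 with the highest mean, and in marker lists up to 3 with the highest mean; others were named after their values were seen. The 3 nearest profiles per member were named by rule. Transcript lengths and 31-mers came from GENCODE M21, and start regions from RefSeq; both are on GRCm38, not on mm9. Alternatives were pseudocounts, filters, scalings, tools, variance models and leaving out libraries.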

Additional observations from a re-analysis of the deposited data

How the results depend on the processing

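The log2 differences of Krt18, Krt19, Krt8 and Vim stayed below 0 in every alternative run: from −2.64 to −2.13 over 24 for Krt18, from −2.35 to −1.69 over 24 for Krt19, from −2.15 to −1.53 over 23 for Krt8 and from −0.44 to −0.19 over 24 for Vim. The exception in size was Krt8 at −1.53 with a pseudocount of 10, which by construction shrinks low values. Krt8 could not be computed with a filter at a mean of 50, and Krt7, barely detected, was left out of this comparison. In limma the replicate block, the filter and the variance trend cannot change a log2 difference. Leaving out libraries cannot reverse the 3 keratins either, as their groups did not overlap. The runs therefore give a range of size and no support for the direction.

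Counts of calls were 0 in the main design and depended on the replicate block, the tool and the libraries; the cause was not tested. Genes higher and lower were 1067 and 1149 with the replicate block, 1190 and 1289 in edgeR with the block, 330 and 399 in DESeq2, 1182 and 1308 in DESeq2 with the block, and 12 and 18 in limma without a trend with the block. With the block, 1 total per library gave 1225 and 1027, and TMM scaling 1136 and 1190; these 2 settings were chosen after seeing the data. Leaving out 1 library gave 0 to 192 higher and 0 to 305 lower without the block (192 and 305 without control replicate 1), and leaving out replicate numbers 1, 2 and 3 in turn gave 2804, 123 and 538 higher and 2792, 177 and 590 lower with the block.

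The other keratins called numbered 2 with the replicate block, 2 in edgeR and 2 in DESeq2 with the block, 1 in DESeq2 without it, 2 with either scaling and the block, and 0 to 2 without 1 library or replicate number. The other intermediate filaments called numbered 4, 4, 4, 1 and 4 in the same settings and 0 to 7 without 1 library or number. The linkers and desmosomes numbered 4, 4, 5, 2 and 4, and 0 to 8. The epithelial markers numbered 1 with the block, 1 in edgeR with the block, 0 in DESeq2 with the block, 1 in DESeq2 without it, 1 with either scaling, and 0 to 1. Depth limits Krt7 and, after YAP siRNA, Krt8, Col17a1, Evpl and Spint1. It also limits Wt1 in the controls.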
